A study of Caenorhabditis elegans with 2 samples.

Results

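The genes described here are the long intergenic RNA (lincRNA) and antisense RNA genes of Caenorhabditis elegans, taken from the Ensembl annotation of the WBcel235 assembly. All genes of these 2 biotypes were kept if their span lay more than 100 bp from any transfer RNA (tRNA), small nucleolar RNA (snoRNA) or small nuclear RNA gene. This left 285 genes, 189 lincRNA and 96 antisense RNA genes, of 294 annotated with these biotypes and of 46890 nuclear genes in all. Chromatin immunoprecipitation sequencing (ChIP-seq) was used to ask where CEH-9, a homeobox transcription factor, is found along the genome. The worms were of strain OP202, which has the genotype unc-119(ed3) III and the integrated transgene wgIs202, from which CEH-9 is made with a C-terminal GFP-FLAG tag. Mixed-sex late embryos were taken whole at 4.75 h past egg bleaching, and an anti-GFP antibody was used on 2 biological replicates, the only group. Whole embryos were used, so a summit belongs to no particular cell type, and no untagged strain was analysed here.

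Long non-coding RNAs are made by RNA polymerase II, often spliced and polyadenylated, and do not encode proteins. A lincRNA gene lies mostly between protein-coding genes, whereas an antisense RNA is read from the strand opposite to another gene and can share its exons, introns or promoter. In worms the function of most of these RNAs is not known, and a few act in developmental timing or stress. The homeodomain, the DNA-binding part of proteins such as CEH-9, generally recognizes short sequences with a TAAT core.

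The authors deposited, for the ce11 build, a relaxed peak list per replicate, another for the pooled replicates, and their reproducible peaks. For each RNA gene the strongest summit within 500 bp of its 5′ end or inside the gene was taken from each relaxed list. Signal is the authors' own value per peak and differs in scale between lists, so summits were ordered by rank within a list, with rank 1 the strongest. Each relaxed list holds 30000 entries by construction and includes background. The share of all genes reached in the same way therefore stands beside the main shares of the RNA genes. No read counts are given and depth is unknown. Intervals are exact binomial (Clopper-Pearson) 95% intervals, which cover the counting of genes only, and neighbouring genes are not independent replicates.

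The share of long RNA genes with a summit was below that of protein-coding genes and of all genes other than piRNA genes, and close to that of all annotated genes only with the piRNA genes counted. The piRNA genes, 15363 loci of short RNAs that guide silencing in the germ line, have a median length of 21 bp and a summit in 7.70% of cases. A pooled summit was found for 94 of the 285 genes, a share of 33.0% (interval 27.6 to 38.8%), against 35.6% of all genes and 49.2% of all but piRNA genes. The share was 54.9% among protein-coding genes, 29.3% among pseudogenes and 62.1% among tRNA genes, which the rule keeps away from the long RNA genes. The shares of protein-coding genes and of all but piRNA genes lie above the interval, and the pseudogene share lies within it. The 94 strongest summits were 94 different ones, so no summit was counted for 2 genes. The strongest summit was in the top 10% of the pooled list (rank 3000 or better) for 14 genes, 4.91% (interval 2.71 to 8.10%), against 6.63% of all genes, 9.63% of all but piRNA genes and 10.4% of protein-coding genes. A reproducible peak was found for 3 genes, 1.05% (interval 0.218 to 3.05%), against 0.894% of all genes and 1.32% of all but piRNA genes. These 3 peaks are 1.45% of the 207 on the reproducible list, which are the 207 strongest of the pooled list. In all 3 counts the share of all genes lies within the interval of the long RNA genes. Without the piRNA genes it lies above the interval for any summit and for the top 10%, and within it for reproducible peaks. The genes other than piRNA genes are longer (median 1259 bp) than the long RNA genes (median 717 bp).

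**Figure D1:**
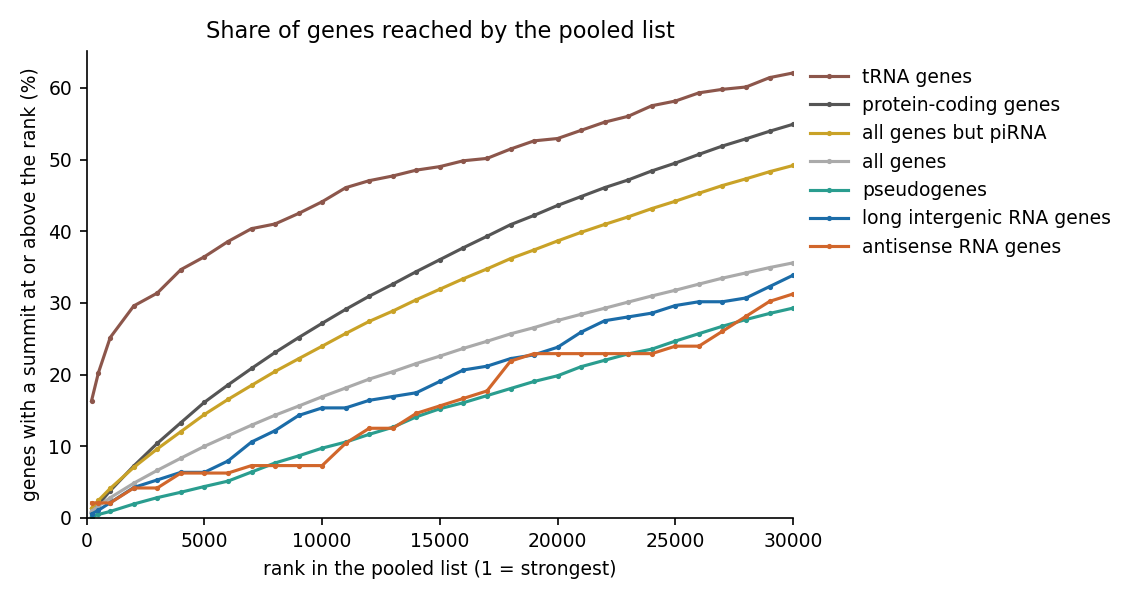
Share of genes (%) whose strongest pooled summit is at or above a rank, plotted against that rank (1 = strongest, 30000 = end of the list), for 7 sets of genes. At rank 3000 the curve of tRNA genes is at 31.4% and that of protein-coding genes at 10.4%, all genes but piRNA are at 9.63%, and lincRNA genes are at 5.29% and antisense RNA genes at 4.17%.

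The strongest summits outside the first linkage group were at linc-90, linc-143 and linc-147, all 3 on chromosome III. The gene linc-90 (chrIII:352222-355402, plus strand, 2 exons) was the only lincRNA gene with a reproducible peak. Its pooled summit had rank 199 (signal 74.6), with rank 557 in replicate 1 and rank 221 in replicate 2. The replicate summits lay 54 bp apart, so both placed it at the same spot, 2289 bp inside the RNA gene. That spot is in an intron of gei-4, which lies on the opposite strand at chrIII:344306-354800, and is 183 bp from an annotated start of gei-4. The gene linc-143 (chrIII:3035541-3037543, minus strand) has a single exon and lies inside daf-2, the insulin-like receptor gene, on the same strand. Its pooled summit, in an intron of daf-2, had rank 240 (signal 71.1), just past the end of the reproducible list, with rank 228 in replicate 1 and rank 2361 in replicate 2. The strongest summits of the replicates were 140 bp apart there. The gene linc-147 (chrIII:3672048-3674245, plus strand) overlaps no protein-coding gene, and its summit had rank 537 (signal 61.4). Its replicates differed in place: the strongest summit was of rank 129 at 1964 bp from the 5′ end in replicate 1, and of rank 217 at 912 bp in replicate 2. At the pooled summit of linc-147, 928 bp from the 5′ end, replicate 1 held only an entry of rank 23224.

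The windows of 151 bases around these pooled summits show what lies at the strongest places, and 3 further windows hold a short word more than once. Each is read 5′ to 3′ on the strand of the RNA, from the WBcel235 (ce11) genome of NCBI RefSeq. Capitals mark matches, on either strand, to TAATTA or TAATTG (homeodomain cores), to GTTCGA or AGTGGT (words of the tRNA B and A boxes), to GAGAGA, to GCGCGC, and to TTTGCCG. The last word was added after the windows had been seen.
linc-90, chrIII:354436-354586, plus strand: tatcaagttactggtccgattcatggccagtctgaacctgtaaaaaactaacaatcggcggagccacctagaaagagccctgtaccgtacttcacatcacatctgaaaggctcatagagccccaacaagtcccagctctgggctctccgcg
linc-143, chrIII:3035989-3036139, minus strand: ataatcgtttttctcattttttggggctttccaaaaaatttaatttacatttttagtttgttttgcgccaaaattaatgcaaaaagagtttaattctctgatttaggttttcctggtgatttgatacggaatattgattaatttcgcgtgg
linc-147, chrIII:3672901-3673051, plus strand: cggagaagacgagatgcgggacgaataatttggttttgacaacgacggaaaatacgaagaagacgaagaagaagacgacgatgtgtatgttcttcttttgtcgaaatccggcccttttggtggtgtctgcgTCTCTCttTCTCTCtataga
linc-95, chrIII:3633591-3633741, minus strand: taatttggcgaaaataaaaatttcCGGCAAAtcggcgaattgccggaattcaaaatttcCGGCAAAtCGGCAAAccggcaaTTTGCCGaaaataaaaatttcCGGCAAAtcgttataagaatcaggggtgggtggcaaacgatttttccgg
linc-87, chrIII:12151515-12151665, minus strand: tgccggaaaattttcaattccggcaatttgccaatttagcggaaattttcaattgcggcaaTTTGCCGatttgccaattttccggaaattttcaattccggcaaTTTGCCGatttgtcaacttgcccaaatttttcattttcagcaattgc
anr-49, chrX:1535837-1535987, plus strand: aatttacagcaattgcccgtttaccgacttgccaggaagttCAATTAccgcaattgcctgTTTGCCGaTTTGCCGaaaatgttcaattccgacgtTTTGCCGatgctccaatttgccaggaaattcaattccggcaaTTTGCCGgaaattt

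The windows differ from one another in base composition and in repeated sequence. The GC content was 51.0% at linc-90, 29.1% at linc-143 and 45.0% at linc-147. Neither linc-90 nor linc-143 held any of the 7 words, and linc-147 held GAGAGA 2 times, seen there as its reverse complement TCTCTC. None of the 36-base words in these 3 windows occurs elsewhere in the genome. At linc-95, 33.6% of the 36-base words do, at linc-87 25% and at anr-49 0%. The word TTTGCCG occurred 5 times at linc-95, 2 times at linc-87 and 4 times at anr-49, and the 5 of 94 windows that held it (5.32%) also include linc-25, with 6 copies, and linc-160, with 5. It was in 6.12% of all pooled windows and in 3.46% of consecutive genome windows of the same length, so the share among the long RNA genes is near that of the whole list.

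Both other reproducible peaks were at antisense RNA genes of chromosome I, for which no sequence is shown. The gene anr-20 (chrI:9382458-9383548, plus strand, 1 exon) lies opposite ppfr-1, which encodes a regulatory subunit of protein phosphatase 4. Its summit had the best pooled rank of the 285 genes, 148 (signal 82.6), with rank 68 in replicate 2 and rank 12181 in replicate 1. No replicate 1 entry lay within 100 bp of the pooled summit, and 44.8% of the 36-base words in its window occur elsewhere in the genome. The gene F48C1.15 (chrI:5315917-5316885, plus strand, 1 exon) lies opposite let-526, which encodes a subunit of the SWI/SNF chromatin-remodelling complex. Its summit had rank 175 (signal 76.7), rank 745 in replicate 1 and rank 185 in replicate 2, and none of its 36-base words is repeated. The replicate summits of F48C1.15 lay 126 bp apart, more than the 100 bp taken as the same place. They were 59 and 67 bp from the pooled one. Both pooled summits are in introns of the coding gene and in the exon of the RNA gene, 705 and 396 bp from the 5′ end. Of the 3 reproducible peaks, those at linc-90 and F48C1.15 were thus in the top 10% of both replicates and that at anr-20 of replicate 2 alone.

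The next genes by pooled rank differed in which replicate ranked them high. On chromosome I, linc-18, which overlaps the 3′ end of sdz-14, had pooled rank 723, with 742 in replicate 2 and 10257 in replicate 1. The gene anr-40, opposite the insulin-like gene ins-36, had pooled rank 1011, with 1389 in replicate 2 and 11531 in replicate 1. It also overlaps Y53H1A.7 on the same strand, 655 bp from a start of which the summit lay. On chromosome IV, anr-18, opposite the F-box gene fbxc-47, had pooled rank 1264, with rank 873 in replicate 2 and no summit in replicate 1. The anr-18 summit lay outside the RNA gene, 419 bp upstream (-419). It was in an intron of M02B7.7, on the same strand, and 212 bp from a start of M02B7.7. The 3 genes linc-18, anr-40 and anr-18 were high in replicate 2 and low or missing in replicate 1. On chromosome III, linc-95, which lies beside rilp-1, had pooled rank 1002, with rank 1015 in replicate 1 and rank 2820 in replicate 2. The 2 replicate summits of linc-95 were 266 bp apart. Also on chromosome III, linc-87 had pooled rank 1399, at a summit 472 bp upstream of its 5′ end (-472). Its ranks of 5867 and 2012 in the 2 replicates were of summits 163 and 719 bp inside the gene. Within 100 bp of the pooled summit the replicates held entries of rank 17700 and 1713. The fifth antisense RNA gene by rank, anr-49 on chromosome X, fell outside the top 10% at pooled rank 3325, with ranks 1715 and 9090. Its pooled summit lay 3935 bp from the 5′ end, and the replicate summits at 283 and 3901 bp. At the pooled summit of anr-49 replicate 1 had rank 6748.

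**Figure D2:**
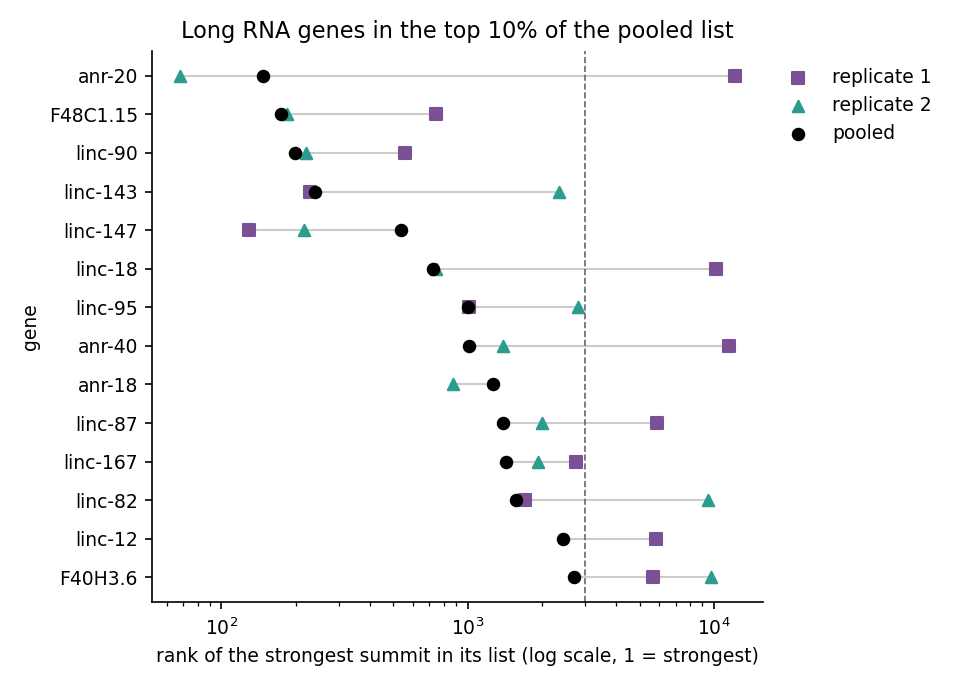
Rank of the strongest summit (log scale, 1 = strongest) in the replicate 1, replicate 2 and pooled lists for the 14 genes in the top 10% of the pooled list, 1 line per gene, with the dashed line at rank 3000. The span is narrow for F48C1.15 and linc-90, and at anr-20 it runs from 68 to 12181. The genes anr-18 and linc-12 have a summit within the stretch searched in only 1 replicate list. For linc-12, replicate 2 holds an entry of rank 4570 just outside that stretch, 43 bp from the pooled summit.

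Of the 14 genes in the pooled top 10%, 11 were in the top 10% of replicate 2, 7 in that of replicate 1 and 6 in both. The 6 genes were F48C1.15, linc-90, linc-143, linc-147, linc-95 and linc-167. The last lies on chromosome I, overlaps no protein-coding gene, and had pooled rank 1428 with ranks 2748 and 1927. Its replicate summits were 1397 bp apart, and replicate 1 had no entry within 100 bp of the pooled one. A gene counts here by the strongest summit of each replicate, which need not be at the pooled place. At the pooled summit of linc-95 replicate 2 had only rank 5330, and at that of linc-147 replicate 1 had only rank 23224. Among all genes in the pooled top 10%, 70.2% were in the top 10% of replicate 2, 50.2% in that of replicate 1 and 33.9% in both. So the unequal share of the replicates was also seen over the 3109 genes of all kinds that reached the pooled top 10%.

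Over all long RNA genes the replicates overlapped in part. Summits were found for 104 genes (36.5%) in replicate 1, against 37.5% of all genes and 50.1% of all but piRNA genes. In replicate 2 they were found for 95 genes (33.3%), against 36% and 49.1%, and 57 genes had one in both. A summit in all 3 lists was found for 52 genes (18.2%, interval 13.9 to 23.2%), against 22.1% of all genes and 31.7% of all but piRNA genes. In addition 137 genes (48.1%) had none in any list, against 48.9% of all genes. There were 35 genes with a summit in replicate 1 alone (12.3%, against 9.11% of all genes), 14 in replicate 2 alone (4.91% against 4.52%) and 6 in the pooled list alone (2.11% against 1.48%). The all-gene shares with no summit, or with one in a single list, count the piRNA genes, of which 7.70% have a pooled summit. They were not computed without the piRNA genes, so the likeness of 48.1% and 48.9% holds only with these counted. Over the 57 genes in both replicate lists, ranks were weakly related (Spearman rho 0.41, Pearson r 0.37), which is a description of genes that share both libraries. For all genes in both lists (n = 11218) rho was 0.31 and r 0.26. The strongest summits of the replicates lay within 100 bp of each other for 12 genes, 4.21% (interval 2.19 to 7.24%), against 5.96% of all genes. The shares of 7.62% for protein-coding genes and 8.20% for all but piRNA genes are above that interval.

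**Figure D3:**
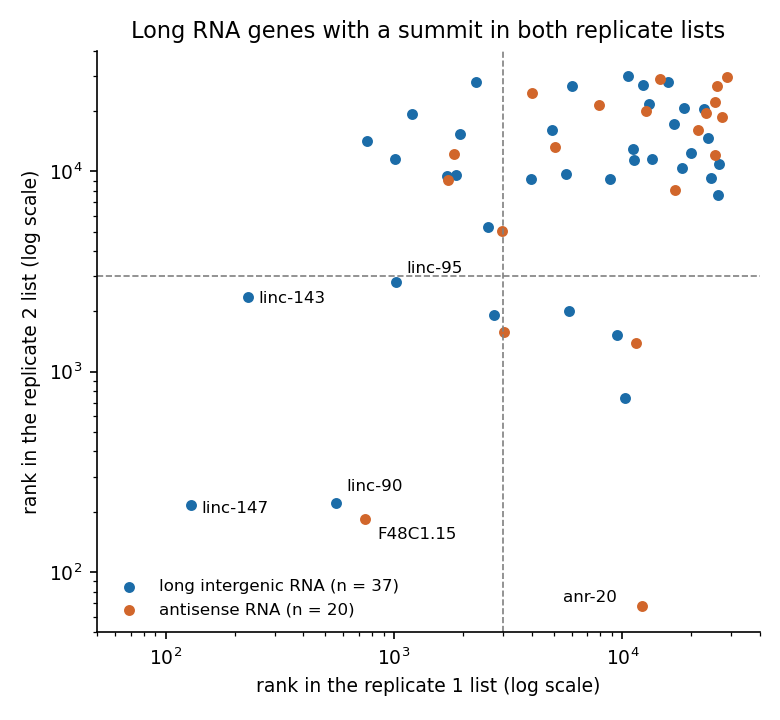
Rank in the replicate 1 list against rank in the replicate 2 list (both log scales, 1 = strongest) for the 57 long RNA genes with a summit in both, coloured by biotype, with dashed lines at rank 3000. In the lower left corner, linc-147, linc-90 and F48C1.15 are at rank 745 or better in both lists, and anr-20 is at rank 68 in replicate 2 only.

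The difference between the 2 biotypes was within the counting error. A pooled summit was found for 64 of 189 lincRNA genes (33.9%, interval 27.2 to 41.1%) and for 30 of 96 antisense RNA genes (31.2%, interval 22.2 to 41.5%). The difference was 2.61 percentage points, with a Newcombe 95% interval from -9.11 to 13.6, so a difference of either sign is within the interval. With the list of replicate 1 alone it was 9.47 points, and with that of replicate 2 alone -1.57 points. In the top 10% were 10 lincRNA genes (5.29%) and 4 antisense RNA genes (4.17%). The median pooled rank of the strongest summits was 12893.5 for lincRNA and 14934.5 for antisense RNA genes. For all 94 genes together it was 13930.5 (order-statistic 95% interval 10906 to 16701). That is weaker than the 10760 of all genes and the 10168 of protein-coding genes, and near the 14394 of pseudogenes. The rank is of the best summit in the stretch searched, which is longer for longer genes. It was not corrected for length.

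The share was higher in the 2 longer of 4 length classes than in the 2 shorter ones. Longer genes also had a longer stretch searched. The long RNA genes were 89 to 6035 bp long (median 717 bp), against a median of 2027 bp for protein-coding genes. Below 300 bp, 9 of 47 genes (19.1%) had a pooled summit, against 20.2% of all genes and 28.1% of protein-coding genes of that length. From 300 bp to under 600 bp it was 12 of 78 genes (15.4%, interval 8.21 to 25.3%), against 26.5% of protein-coding genes and 28.1% of all genes, both above the interval. From 600 bp to under 1200 bp it was 25 of 69 (36.2%), against 35.2% of all genes and 37.3% of protein-coding genes. From 1200 bp it was 48 of 91 (52.7%, interval 42.0 to 63.3%), against 60.1% and 61.8%. In the 3 other classes the shares of all genes and of protein-coding genes were inside the interval of the long RNA genes. Below 300 bp, however, all genes had a median length of 21 bp, that of the piRNA genes, against 204 bp for the long RNA genes. The all-gene shares of that class are thus mostly of piRNA genes, and were not computed without them. In the top 10% of the list were 9 of the 91 longest genes (9.89%, against 11.9% of all genes of that class) and 4 of the 69 in the class below (5.80% against 4.52%). Of the 78 genes in the next class none was there, against 3.33% of all genes, and of the 47 shortest 1 was (2.13% against 3.79%). Within 500 bp of the 5′ end alone, which is the same length for every gene, 68 long RNA genes (23.9%, interval 19.0 to 29.2%) had a summit. The share was 24.3% for all genes, and 29.8% for protein-coding genes and 32.4% for all but piRNA genes, both above the interval.

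**Figure D4:**
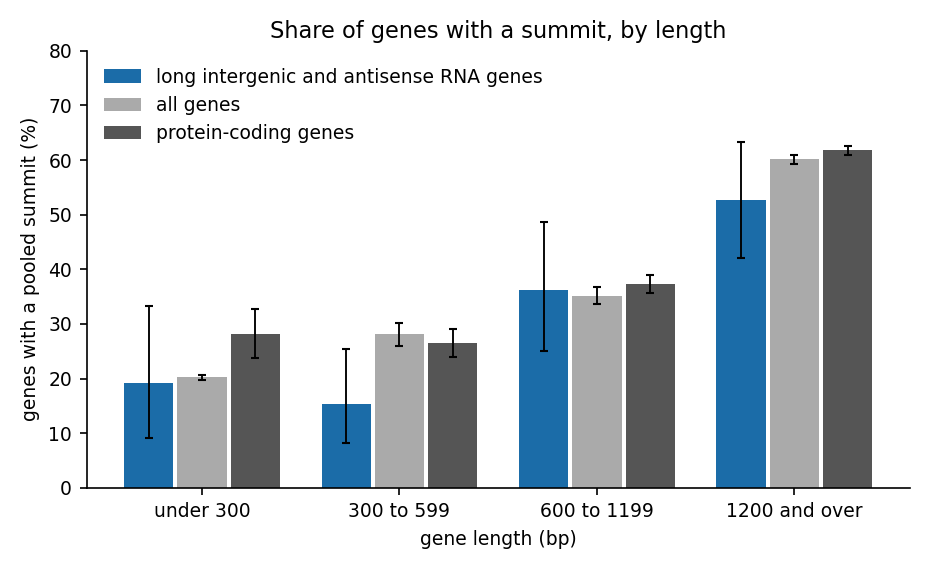
Share of genes with a pooled summit (%) in 4 classes of gene length for the long RNA genes, all genes and protein-coding genes, with exact 95% intervals as bars. The share of long RNA genes is 19.1% and 15.4% in the 2 short classes, and 36.2% and 52.7% in the 2 long ones.

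Per length of sequence the long RNA genes were close to the genome as a whole. Their windows covered 477 kb and held 126 pooled summits, or 26.4 per 100 kb, against 29.9 per 100 kb of the nuclear genome. Protein-coding genes had 32.6 per 100 kb, pseudogenes 19.1 and tRNA genes 73.5. Summits of the top 10% came at 3.14 per 100 kb in the long RNA genes and at 2.99 in the genome.

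The strong summits were unevenly placed over the chromosomes, as were those of all genes. Of the 14 genes in the top 10%, 6 were on chromosome III (15.8% of its 38 long RNA genes) and 5 on chromosome I (14.7% of 34). Chromosome II had 2 (3.64%) and chromosome IV had 1 (2.04%). None of the 67 genes on V or of the 42 on X was among them. For all genes the share in the top 10% was also highest on III (14.4%) and I (12.3%), near that of the long RNA genes there. It was 9.54% on II, 2.49% on IV, 6.10% on V and 9.45% on X. Among protein-coding genes it was 9.39% on IV. The share with any pooled summit ran from 26.5% on IV to 44.7% on III. For all genes it was 17.1% on IV and 60.8% on III, and for protein-coding genes 52.6% and 68.3%. The all-gene shares count the piRNA genes and were not computed without them by chromosome. Among protein-coding genes the lowest share was 42.7%, on V.

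Relative to the RNA gene, summits were found on both sides of the 5′ end and along the gene. Of the 94 strongest summits, 31 lay upstream of it, 28 in the first 500 bp and 35 further inside. The last group is 37.2% of the summits, beside 41.0% of the length searched. Within 100 bp of the 5′ end lay 17 summits, 18.1% (interval 10.9 to 27.4%), beside 11.8% of the length searched, which is inside that interval. That is 0.297 strongest summits per kb, against 0.177 per kb beyond 500 bp, with 1 summit counted per gene whatever its length. None of the 14 summits of the top 10% was within 100 bp, the nearest being 150 bp away, and 7 of them lay more than 500 bp inside. An exon of the RNA gene held 43 of the 94 summits and an intron 16. These places along the gene were not computed over all genes, so whether they are particular to the long RNA genes is not known.

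**Figure D5:**
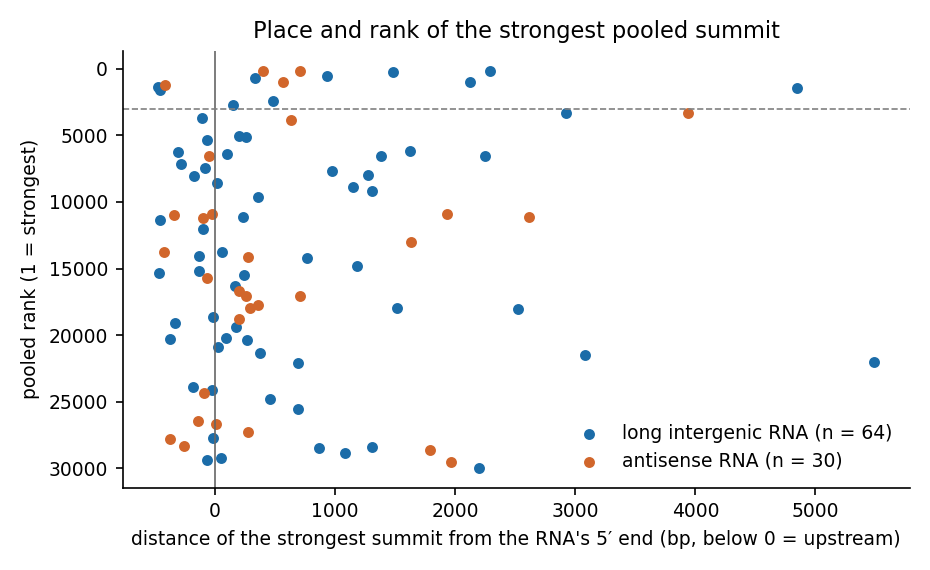
Distance of the strongest pooled summit from the 5′ end of the RNA (bp, below 0 is upstream) against its pooled rank (1 = strongest, at the top) for 64 lincRNA and 30 antisense RNA genes, with the dashed line at rank 3000. The 14 points above that line are spread from 472 bp upstream (-472) to 4844 bp inside the gene.

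Relative to protein-coding genes, the biotypes differed as their definitions have it. The summits of lincRNA genes lay between protein-coding genes in 52 of 64 cases (81.2%). Those of antisense RNA genes lay in a coding exon in 13 of 30 cases, in an intron in 11, in an untranslated exon in 3 and between genes in 3. Of all pooled summits, 30.9% lay in a coding exon, 33.7% in an intron, 4.47% in an untranslated exon and 30.9% between genes. A protein-coding start was within 1 kb for 14 of the 30 antisense summits (46.7%) and for 12 of the 64 lincRNA summits (18.8%), against 45.2% of all pooled summits. The median distance to the nearest such start was 1115.5 bp and 2352 bp in the 2 biotypes. One of these summits was at linc-2 on chromosome III, a gene of 127 bp that overlaps the start of pcf-11, which encodes a factor of pre-mRNA 3′ end cleavage. It lay 70 bp upstream of linc-2 (-70) and 103 bp from a start of pcf-11, with pooled rank 5332 and ranks 2588 and 5274 in the replicates. Where an antisense or lincRNA gene shares sequence with a coding gene, a summit cannot be assigned to one of them. None of the 94 summits was within 100 bp of a small RNA gene, against 1.46% of all pooled summits. For summits inside the RNA gene, the rule that chose the genes sets this for tRNA, snoRNA and small nuclear RNA genes. The 2 values are therefore no comparison.

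The remaining genes were named because even the weaker of their replicate ranks was among the best of the rest, and their replicate summits were at different places. The gene anr-48 on chromosome II, opposite 3 coding genes with fbxb-38 among them, had rank 3024 in replicate 1 and 1575 in replicate 2, but 11186 in the pooled list. Its replicate summits were 380 bp apart, and those of anr-42, linc-2 and linc-163 were 285, 195 and 288 bp apart. The gene anr-42 on chromosome I had ranks 2977 and 5062 and a pooled rank of 13733, with 50% of the words in its window repeated elsewhere. The gene linc-163 on chromosome V had ranks 8835 and 9127 and a pooled rank of 14773, with neither replicate summit within 100 bp of the pooled one. The RNA of lep-5 on chromosome X, which acts in developmental timing, is one of the few with a known role. It had no summit in the pooled or replicate 1 list and 1 of rank 14695 in replicate 2, 862 bp inside the gene.

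Sequence at the 94 summits was near that of the whole list in most measures. The median GC content was 39.7%, against 40.4% of all pooled windows, and 47.0% in the 14 windows of the top 10%, against 45.0% of all top 10% windows. At least 1 repeated word of 36 bases was present in 15 windows (16.0%), against 11.2%. The word TAATTA, which holds the TAAT core, was in 9 windows (9.57%), against 5.14% of all pooled windows and 7.08% of consecutive genome windows. TAATTG was also in 9 windows, against 9.27% and 12.1%. GAGAGA was in 14 windows (14.9%), against 9.91% and 7.63%. GCGCGC was in 3 windows (3.19%, against 2.01% and 0.968%), GTTCGA in 4 (4.26%, against 5.86% and 5.58%) and AGTGGT in 5 (5.32%, against 5.67% and 4.84%). In the 14 top 10% windows neither homeodomain core nor tRNA word was present, and GAGAGA and GCGCGC were in 2 each. Over all windows of the top 10%, TAATTA was in 3.8%, TAATTG in 6.47%, GTTCGA in 8.53%, AGTGGT in 8%, GAGAGA in 12.4% and GCGCGC in 3.23%, so a 0 in 14 windows is near these shares. Each word was counted on both strands, and a count of this size is a description of letters in these windows.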

How the data were processed

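CEH-9-GFP ChIP-seq of 2 biological replicates was used, as ce11 peak lists. The authors deposited a signal per peak (column 7), which was used only as a rank within a list, and a −log10 q value, at most 2.49 on the reproducible list, which was not tested. Per the deposited descriptions, each replicate's peaks were called against a control, the pooled ones from both replicates together, and the reproducible ones by an irreproducible discovery rate (IDR) step. For the aligner, peak caller and IDR threshold, nothing was given in the sources used here. Control libraries and the ce10 lists were not used here.

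Genes came from Ensembl release 115 on the assembly of ce11, and sequence from NCBI RefSeq WBcel235. A gene's strongest summit was the one of best rank within 500 bp of its 5′ end or inside it. Replicate summits within 100 bp were called the same place. Windows ran 75 bp to each side of a summit. Repeated sequence was measured with 36-base words found elsewhere in the genome. The 6 motifs were searched on both strands, and TTTGCCG was added after the windows were seen. The members and lists were chosen with earlier results of these data known.

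Genes were named by a rule: members with a reproducible peak, the 10 of best pooled rank, the 5 strongest of each biotype, the 5 others whose worse replicate rank was best, and known long RNAs. The genes linc-12, linc-82, linc-45 and F40H3.6 and the genes near small RNA genes were named after their values were seen. With 1 group there is no test between conditions, and no p-value was computed. Shares have Clopper-Pearson 95% intervals. The assignment of summits was tested on simulated data. Alternatives covered distances, thresholds, each replicate's list and genes near small RNA genes. The work used scipy 1.17.1 and numpy 2.4.6 under Python 3.11.15, with matplotlib 3.10.9 for plots.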

Additional observations from a re-analysis of the deposited data

How the results depend on the processing

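The 6 summary results were recomputed under 50 alternatives, of which 40 kept their value within the counting interval or, for a count, within 1.5 times. Among these, leaving out summits within 100 bp of a small RNA gene could change nothing, because no strongest pooled summit of a long RNA gene lay there. The share with a pooled summit followed the length searched. It was 49.1% with 1000 bp around the 5′ end, 23.2% inside the gene span only and 23.9% within 500 bp of the 5′ end only, the last chosen after seeing the data, and 33.3 to 36.5% with either replicate's list alone. The share in the top 10% fell to 2.46% in the 5′ window alone. Over all genes, the share with a summit was computed only for the 5′ window (24.3%) and for the replicate lists. The other alternatives cover the long RNA genes only. The 3 genes with a reproducible peak became 1 in the 5′ window alone, 0 among members overlapping no protein-coding gene (also chosen after seeing the data) and 0 in the stronger 104 entries of the reproducible list. The 207 strongest entries of a single replicate held 1 member (replicate 1 alone, linc-147, which has no reproducible peak) to 2 members (replicate 2 alone). Replicate summits at the same place were found for 2.11% of genes within 50 bp, and for 2.11% where both had to be among the stronger 50% of their list. The lincRNA minus antisense difference was -1.57 to 9.47 points with either replicate's list alone, within the interval of the main value. Leaving out genes within 1000 bp of a small RNA gene left 280 of the 285 genes. None of the 5 results recomputed so passed its interval, and these count among the 40 that kept their value. So few genes were left out that the shares, the median rank and the lincRNA minus antisense difference could not have passed their intervals. For these it is no test. The same-place share was not recomputed that way. No paired analysis was possible because the series has 1 group. Depth is unknown, and 14 genes in the top 10% leave wide intervals.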

Other observations

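A stretch of chromosome III, from 3 to 3.7 Mb, held 4 of the 14 long RNA genes in the pooled top 10%, among 10 members lying there. It was chosen after the values were seen. The 4 genes are linc-143, inside the insulin-like receptor gene daf-2, and linc-147, linc-95 and linc-82. The last had pooled rank 1569, with rank 1704 in replicate 1 and rank 9464 in replicate 2, and its summit lay 99 bp from a start of the coding gene C46F11.4. Another gene there, linc-45, had pooled rank 6430. In the same stretch 26 of 94 protein-coding genes (27.7%) had a top 10% summit, against 15.9% of those on the whole chromosome. Summits of the top 10% came at 6.29 per 100 kb there and at 4.39 per 100 kb on the chromosome.

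The rule left out 9 long RNA genes within 100 bp of a small RNA gene, 5 lincRNA and 4 antisense RNA genes. Of these, 7 had a pooled summit, against 94 of the 285 kept. The gene linc-44 had a reproducible peak of rank 80, better than that of any gene kept. The genes anr-5, anr-25 and W10G6.5 had ranks 356, 1056 and 1862. With 9 genes, chosen for lying next to other genes, these are values and no comparison.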
